A study of Mus musculus with 46 samples.

Results

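The data described here are the RNA levels of 41 genes of the cell cycle and DNA replication, chosen by name and found as 41 of the 33331 gene rows of a mouse fetal gonad data set. They are 20 genes of DNA replication and the G1-to-S transition (here S-phase genes), 16 genes of the G2 phase and mitosis (mitotic genes), the 3 D-type cyclins and 2 inhibitors of cyclin-dependent kinases. These 41 genes were chosen with earlier results of these data known, so their counts beside shares of all genes are a description. Poly(A) RNA of whole gonads from embryos at E12.5 was sequenced in 46 libraries, 24 XX and 22 XY, in 12 groups. The groups carry wild-type (WT) or mutated Enh13, a distal enhancer of Sox9, the gene that directs supporting cells to the Sertoli fate. The XX groups were WT, heterozygotes of the 1bp-ins and of the 3bp-del mutation (n = 3 each), and homozygotes of 1bp-ins, of 3bp-del and of 3bp-12bp-del (n = 5 each), which is the order in which values of the 3 homozygote genotypes are given throughout. The XY groups were WT, 1bp-ins and 3bp-del heterozygotes and 3bp-12bp-del homozygotes (n = 3 each), and homozygotes of 1bp-ins and of 3bp-del (n = 5 each). What the 3bp-12bp-del label joins is not explained in the sources used here. No group carried a transgene or a treatment according to the labels. Nothing says that replicates come from separate animals, so p-values measure only the spread between these libraries.

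In a dividing cell, D-type cyclins with Cdk4 or Cdk6 open the way from G1 into S phase, and the inhibitors Cdkn1a and Cdkn1b hold cyclin-dependent kinases back. Replication origins are then loaded with the MCM helicase and copied, and Cdk1 with cyclins A and B drives the later entry into mitosis. In the mouse fetal gonad, the XY gonad grows rapidly from the onset of testis formation, while XX pregranulosa cells are known to leave the cell cycle and to express Cdkn1b. E2F factors drive many S-phase genes, and the DREAM and MuvB complexes act on many mitotic genes through a CHR element, often beside CCAAT boxes bound by NF-Y.

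Promoters of 4 members are shown because they carry the elements of these 2 programmes. Sequences are from RefSeq on GRCm38.p6, from 250 bases before to 50 bases after the gene start, read 5′ to 3′ on the gene's strand. Capitals mark matches, on either strand, to TTTNNCGC (the letters searched for E2F), CCAAT (NF-Y) or TTTGAA (CHR). Cdc6 and Mcm6, which load and form the replicative helicase, represent the S-phase genes. Cdk1, the mitotic kinase, and Plk1, polo-like kinase, represent the mitotic genes.
Cdc6 (chr11:98907901-98908200, plus strand): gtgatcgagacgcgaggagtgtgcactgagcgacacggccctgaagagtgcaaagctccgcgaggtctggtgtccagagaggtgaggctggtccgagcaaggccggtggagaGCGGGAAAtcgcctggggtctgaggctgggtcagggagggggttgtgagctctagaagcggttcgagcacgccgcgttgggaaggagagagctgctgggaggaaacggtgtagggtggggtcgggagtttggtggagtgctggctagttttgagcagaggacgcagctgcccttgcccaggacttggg
Mcm6 (chr1:128359656-128359955, minus strand): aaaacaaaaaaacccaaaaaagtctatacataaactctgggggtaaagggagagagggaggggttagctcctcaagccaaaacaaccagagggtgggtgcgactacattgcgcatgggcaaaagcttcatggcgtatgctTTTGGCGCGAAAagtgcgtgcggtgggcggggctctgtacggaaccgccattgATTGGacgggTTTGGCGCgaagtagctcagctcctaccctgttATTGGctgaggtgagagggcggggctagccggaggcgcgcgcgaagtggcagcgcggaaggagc
Cdk1 (chr10:69352863-69353162, minus strand): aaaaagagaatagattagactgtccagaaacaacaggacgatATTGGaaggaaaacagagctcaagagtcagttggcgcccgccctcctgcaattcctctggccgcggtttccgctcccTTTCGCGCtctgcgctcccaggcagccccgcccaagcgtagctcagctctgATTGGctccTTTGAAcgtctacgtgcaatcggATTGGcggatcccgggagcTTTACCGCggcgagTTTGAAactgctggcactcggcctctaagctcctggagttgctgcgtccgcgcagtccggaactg
Plk1 (chr7:122159185-122159484, plus strand): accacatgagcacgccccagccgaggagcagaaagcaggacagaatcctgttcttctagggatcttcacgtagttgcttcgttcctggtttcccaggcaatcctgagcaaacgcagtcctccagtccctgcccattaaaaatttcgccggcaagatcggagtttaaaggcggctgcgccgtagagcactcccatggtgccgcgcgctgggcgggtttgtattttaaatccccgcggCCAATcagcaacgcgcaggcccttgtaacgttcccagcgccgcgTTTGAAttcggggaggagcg
Cdc6 had 1 E2F match, and Mcm6 had 3 E2F matches, 2 of which overlap each other, with 2 CCAAT matches. Cdk1 had 2 E2F, 3 CCAAT and 2 CHR matches, and Plk1 had 1 CCAAT and 1 CHR match. The RefSeq table held 37 promoters of 33 members. The E2F letters were found in 9 of 18 S-phase promoters (50%), 1 of 14 mitotic promoters (7.14%) and 5.17% of all 32851 promoters. The CHR letters were found in 2 of 18 S-phase promoters (11.1%), 10 of 14 mitotic promoters (71.4%) and 17.9% of all promoters. CCAAT was found in 13 of 18 (72.2%), 13 of 14 (92.9%) and 37.4%. A match of letters is a description and not a shown binding site.

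All 41 genes were well detected. The libraries held 29909111 to 46150400 estimated counts each, and the lowest count of any member in any library was 342, for Cdkn1a, so all 41 passed the expression filter in every comparison. On the length-corrected TPM scale the mean level was highest for Pcna, the sliding clamp of DNA polymerase, at 314, followed by Top2a at 254, Ccnd3 at 232, Cdk1 at 212 and Mcm6 at 210.1. It was lowest for Ccne2, a cyclin E, at 15.1, and for Cenpe, a kinetochore motor, at 20.5. Counts of Ccnb1 and Mcm7 were not whole in all 46 libraries, those of Mki67 in 45 and those of Pcna and Uhrf1 in 44. Part of the reads of these 5 genes may therefore be shared with other features, and their values are less certain.

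The labels were checked against marker genes. Sox9 was 7.84 to 12.1 CPM (library-size scaled counts) in XX WT, 84.0 to 163 in XY WT and 136 to 266 in XX homozygotes, and germ cell markers Ddx4 and Dazl were present in every library. Several libraries stood apart in their markers. Replicate 3 of XY WT had a summed mesonephros marker level of 312 CPM against 90.3 to 114 in the other XY WT libraries, and its Sox9 was the lowest of its group. Its Sertoli marker sum was 582 CPM (1478 and 1346 in replicates 1 and 2). Its pregranulosa sum was 292 CPM (144 and 193) and its macrophage sum 121 CPM (52.9 and 50.3). Replicate 1 of XX WT had an adrenal marker sum of 139.5 CPM, against 3.20 to 4.03 in the other XX WT libraries. Smaller adrenal sums apart from their groups were 54.4 CPM in replicate 1 of the XY 3bp-del heterozygotes (7.28 and 7.51 in the others) and 32.5 CPM in replicate 2 of the XX 1bp-ins heterozygotes (2.77 and 5.55). In XX 1bp-ins homozygotes the adrenal sum was 32.3, 27.4 and 29.4 CPM in replicates 1, 3 and 4 and 2.67 and 6.21 in replicates 2 and 5. Replicate 5 of the XX 1bp-ins homozygotes had a Sertoli marker sum of 1895 CPM against 343 to 822 in the other libraries of its group. Counts of called members that rest on these libraries are given with and without them. This was not done for each of the 1bp-ins homozygotes with adrenal signal. Shares of all genes called stand only beside the main fits, so counts from other fits cannot be set against all genes. In whole gonads, fewer cells of a type and less RNA per cell cannot be told apart.

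In the comparison of the sexes, cell cycle genes were mostly higher in XY and Cdkn1b was lower. In WT, 38 of 41 members had a log2 fold change (XY over XX) above 0, with a median of 0.37 over the S-phase and 0.47 over the mitotic genes, against -0.00 over all 15730 genes tested. Of the 41, 8 were higher and 1 was lower in XY WT by edgeR's quasi-likelihood test at a Benjamini-Hochberg adjusted p under 0.05, where 5.1% and 5.94% of all genes were called. The 8 were the replication genes Cdc6, Cdc45 and Uhrf1, the mitotic genes Mki67, Cdk1, Plk1 and Cenpe, and Ccnd1, and the lower gene was Cdkn1b. Cdk1 differed by 0.70 ± 0.16 (SE) on the log2 scale, Plk1 by 0.75 ± 0.17 and Cdc6 by 0.65 ± 0.15 (edgeR adjusted p = 0.0338, 0.0333 and 0.0372). Cdkn1a was not called (-0.76 ± 0.28, edgeR adjusted p = 0.141). Without XY WT replicate 3, the library with the high mesonephros and low Sertoli marker sums, 33 were higher and 2 lower. The share of all genes called in that fit is not given here. Without XX WT replicate 1, 2 were higher and 1 lower, and without any 1 of the other 4 libraries 1 was higher and 1 lower. Only Cenpe and Cdkn1b kept their calls in each of the 6 fits that leave out 1 library.

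The same contrast in heterozygotes used other libraries. In 1bp-ins heterozygotes, 31 members were higher and 2 lower in XY (18.9% and 20.2% of all genes), and in 3bp-del heterozygotes 27 were higher and 2 lower (15.9% and 13.8%). In both, the lower genes were Cdkn1a (-1.50 ± 0.11 and -1.89 ± 0.13) and Cdkn1b (-2.02 ± 0.10 and -2.10 ± 0.09). Among the higher genes, Cdk1 differed by 0.88 ± 0.06 and 0.95 ± 0.09, and Plk1 by 0.74 ± 0.06 and 0.74 ± 0.08. The 27 of the 3bp-del comparison were all among the 31 of the 1bp-ins comparison. These 27 were 12 S-phase genes, 13 mitotic genes, Ccnd1 and Ccnd2. The median fold of the mitotic genes was 0.59 and 0.64, and that of the S-phase genes 0.30 and 0.35. Ccne1, Gins2, Cdt1, Mcm2, Mcm6, Mcm7 and Ccnd3 were called in none of the 3 sex comparisons. Without replicate 2 of the XX 1bp-ins heterozygotes 30 members were higher and 2 lower, and without replicate 1 of the XY 3bp-del heterozygotes 24 and 2. Other cell types differed between the sexes too. The mesonephros marker sum (8 genes) was 252 to 312 CPM in XX WT and heterozygotes and 79.8 to 114 in the XY ones other than XY WT replicate 3, and germ cell markers were lower in XY by the same test in 0, 6 and 1 of 11 genes (WT, 1bp-ins and 3bp-del heterozygotes). The stroma and Leydig marker sum (9 genes) was 576 to 760 CPM in XX WT and heterozygotes and 1013 to 1288 in the XY ones, with 2, 6 and 6 genes called higher and 1, 1 and 0 lower in XY. Their part in the results was not tested.

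**Figure D1:**
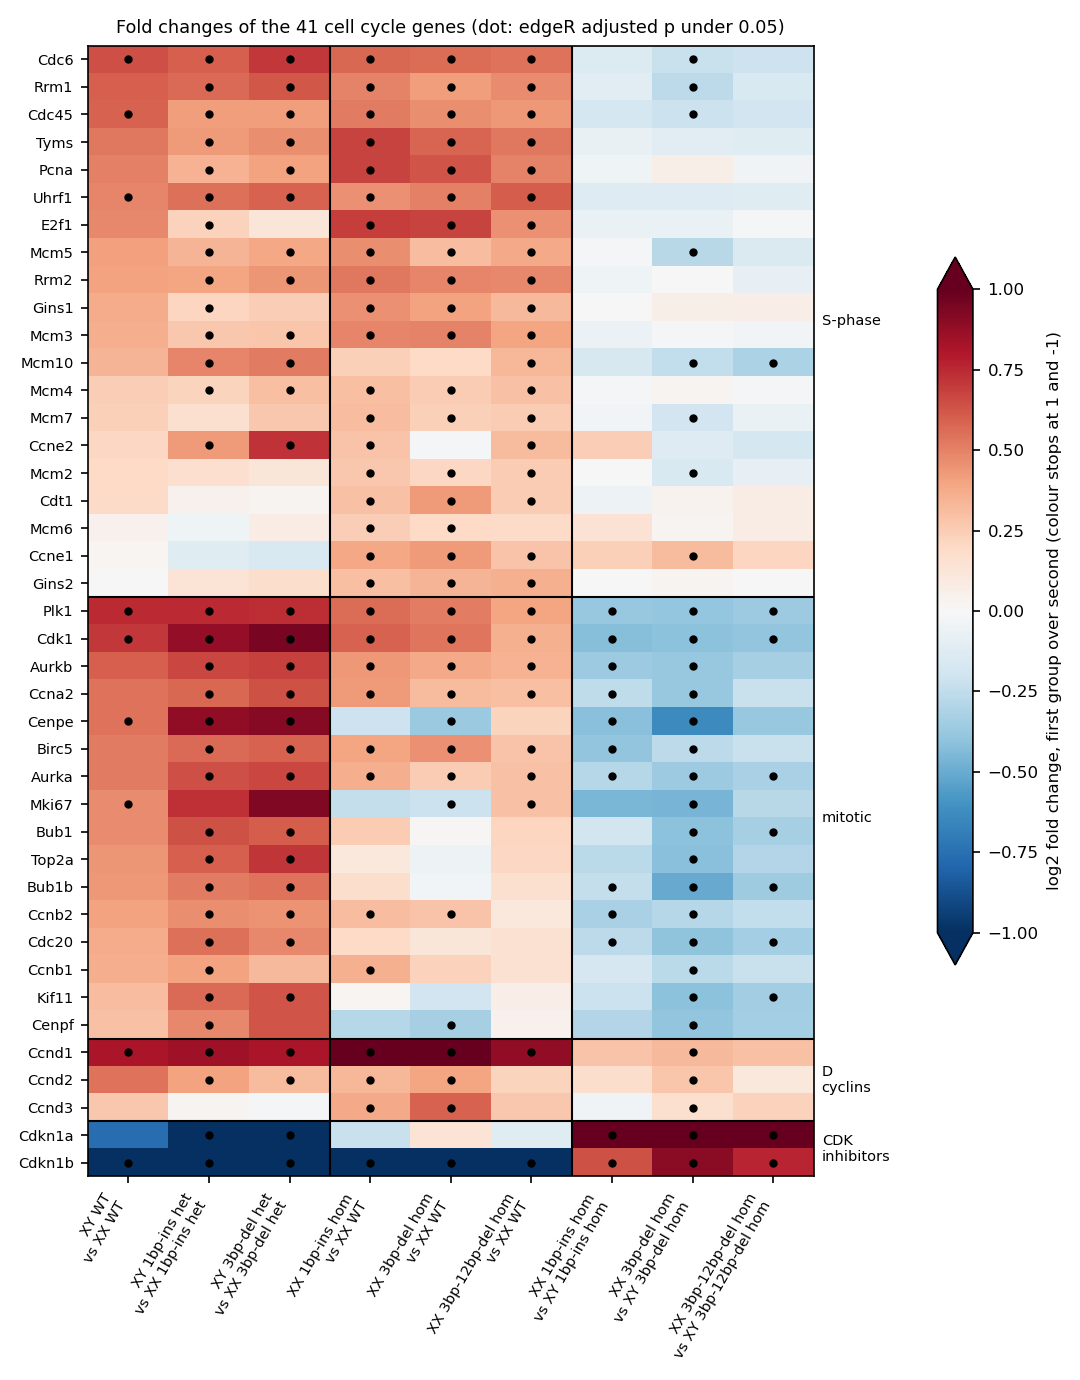
Log2 fold change of each member (first group over second) in 3 sex comparisons, 3 comparisons of XX homozygotes with XX WT and 3 of XX with XY homozygotes of the same mutation, with dots where edgeR's adjusted p was under 0.05. In the right-hand block the mitotic genes are below 0 and both CDK inhibitors above, and most S-phase genes are near 0.

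In XX homozygotes most S-phase genes were higher than in XX WT in all 3 genotypes. In 1bp-ins homozygotes 30 of 41 members rose and 1 fell (17.2% and 15.1% of all genes), in 3bp-del 28 rose and 4 fell (21.6% and 23.1%), and in 3bp-12bp-del 27 rose and 1 fell (14.6% and 11%). Of the 20 S-phase genes 19, 18 and 19 rose, with medians of 0.46, 0.42 and 0.37, against 0.00, -0.03 and 0.00 over all genes. Of the 16 mitotic genes 8, 7 and 7 rose, with medians of 0.28, 0.17 and 0.22, and in 3bp-del homozygotes 3 fell. These comparisons share the 3 XX WT libraries. The counts without XX WT replicate 1 were 25 higher and 1 lower, 29 and 4, and 23 and 1, and without replicate 5 of the 1bp-ins homozygotes 30 and 1. Without XX WT replicate 3 the calls fell in number to 19 higher and 1 lower for 1bp-ins and to 13 and 1 for 3bp-12bp-del. For 3bp-12bp-del they were 15 and 1 without its replicate 4 and 17 and 1 without its replicate 5.

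Erythroid precursors divide rapidly in the fetus, and their RNA was in all libraries. The summed level of 9 erythroid markers was 4215, 4278 and 8547 CPM in XX WT, 7744 to 13617 in 1bp-ins, 5709 to 9581 in 3bp-del and 4938 to 7171 in 3bp-12bp-del homozygotes. Germ cell marker sums (11 genes) overlapped, with 244 to 490.3 CPM in XX WT and 273 to 575 in XX homozygotes. Of the 9 erythroid markers 2, 0 and 0 were called higher, and of the 11 germ cell markers 0, 1 and 0. Of 8 endothelial markers 5, 6 and 0 were called lower, and of 8 mesonephros markers 2, 2 and 4. The supporting cell markers shifted most. The pregranulosa marker sum was 839 to 1115 CPM in XX WT and 176 to 446, 462 to 557 and 290 to 545 in the homozygotes. The Sertoli marker sum was 26.0 to 29.4 CPM in XX WT and 343 to 1895, 339 to 634 and 405 to 989 in the homozygotes. The part of all these cell types in the results, that of Cdkn1b included, was not tested.

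Of the inhibitors, Cdkn1b fell in XX homozygotes of each genotype and Cdkn1a passed the test in none. Cdkn1b was 147, 171 and 199 CPM in the 3 XX WT libraries. In XX homozygotes it was 78.7, 71.7, 56.3, 78.2 and 54.8 CPM for 1bp-ins, 69.7, 73.2, 78.1, 71.6 and 83.1 for 3bp-del and 82.1, 70.3, 92.7, 52.8 and 61.2 for 3bp-12bp-del. Over all 22 XY libraries it was 36 to 52 CPM. Every XX homozygote thus lay below every XX WT library and above every XY library, and XX heterozygotes (159.6 to 212 CPM) overlapped XX WT. Of all genes, 19.2%, 22.8% and 14.7% were lower in the XX homozygotes than in XX WT with no overlap in CPM. The log2 fold against XX WT was -1.32 ± 0.15, -1.20 ± 0.09 and -1.24 ± 0.18 (SE; edgeR adjusted p = 0.000967, 2.22e-05 and 0.00261). Between the WT sexes it was -2.06 ± 0.12 (edgeR adjusted p = 0.000294).

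Cdkn1a, a target of p53, was 33.2, 35.8 and 32.4 CPM in XX WT. It was 37.8, 40.1, 24, 29.1 and 12.2 CPM in XX 1bp-ins, 34, 30.5, 40.2, 44.9 and 36.6 in 3bp-del and 29.9, 32.2, 38.8, 27.2 and 25.2 in 3bp-12bp-del homozygotes. In XY WT it was 13.6, 16.4 and 30.2 CPM, and in the other 19 XY libraries 10.5 to 17.3. The XX homozygote groups lay on both sides of the narrow XX WT range. In CPM, 2, 3 and 1 of 5 libraries lay above all XX WT libraries and 3, 1 and 4 of 5 below. Replicate 5 of 1bp-ins, the library with the high Sertoli marker sum, lay in the range of the XY libraries other than XY WT replicate 3. Replicate 3 of XY WT, the library with the high mesonephros and low Sertoli marker sums, lay in the range of the XX homozygotes. No XX homozygote group passed the test against XX WT (log2 fold -0.22, 0.14 and -0.12; edgeR adjusted p = 0.650, 0.341 and 0.501).

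**Figure D2:**
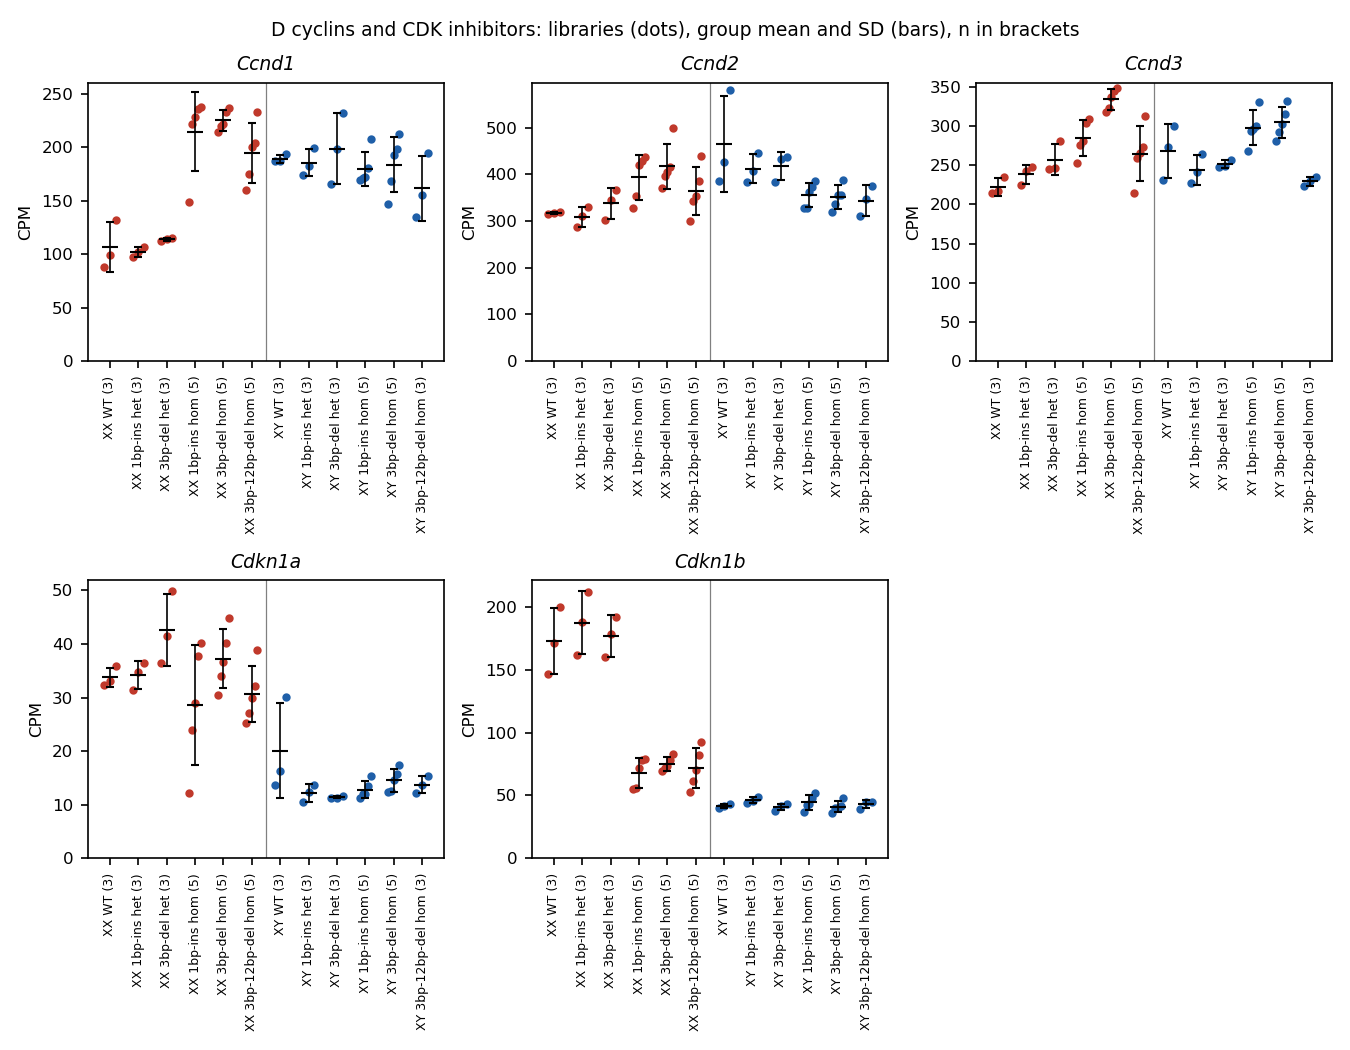
CPM of the 3 D-type cyclins and 2 CDK inhibitors in every library (dots), with the group mean and SD (bars), for 6 XX groups (red) and 6 XY groups (blue). Cdkn1b of the XX homozygotes lies between the XX WT and the XY libraries, and Ccnd1 is higher in XX homozygotes than in XX WT.

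Of the D-type cyclins, Ccnd1 had the highest fold in XX homozygotes. It was 132, 99.5 and 88.2 CPM in XX WT and 97.7 to 115 in XX heterozygotes. In XX homozygotes it was 228, 236, 237, 222 and 149 CPM for 1bp-ins, 219, 214, 237, 233 and 222 for 3bp-del and 204, 233, 160.3, 175 and 201 for 3bp-12bp-del. In XY WT it was 187, 187 and 193 CPM. On the CPM scale every XX homozygote lay above every XX WT library, and 4 of 5 1bp-ins, 5 of 5 3bp-del and 3 of 5 3bp-12bp-del homozygotes lay above all 3 XY WT libraries. On the TPM scale the latter counts were 1, 0 and 2 of 5, with XY WT replicate 3 at 94 TPM, and replicate 5 of 1bp-ins (57.9 TPM) lay below the highest XX WT library (59.99 TPM). The log2 fold against XX WT was 1.03 ± 0.19, 1.07 ± 0.11 and 0.89 ± 0.16 (edgeR adjusted p = 0.00529, 0.000112 and 0.00523). XY WT exceeded XX WT by 0.82 ± 0.16 (edgeR adjusted p = 0.0190), a call lost without XX WT replicate 2 or 3 or XY WT replicate 1 or 2.

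Ccnd2 was 319, 317 and 315 CPM in XX WT and 398, 370.2, 417, 499 and 405 in XX 3bp-del homozygotes, with no overlap in CPM but with overlap in TPM. It rose in homozygotes of 1bp-ins and of 3bp-del (0.33 and 0.39) and was not called in 3bp-12bp-del (0.22, edgeR adjusted p = 0.147). Ccnd3 was 235, 217 and 214 CPM in XX WT and 348, 336, 323, 318 and 345 in 3bp-del homozygotes, also with no overlap. Its log2 fold was 0.38 ± 0.08 in 1bp-ins, 0.59 ± 0.05 in 3bp-del and 0.27 ± 0.10 in 3bp-12bp-del homozygotes, and the last was not called. The call of Ccnd2 in 1bp-ins was lost without any 1 of 6 of the 8 libraries. Whether the genotypes differ from each other in Ccnd2 or Ccnd3 was not tested.

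The S-phase and mitotic genes given by library, other than Pcna and Mki67, were picked by the smallest adjusted p against XX WT. That choice used XY WT or XX 3bp-12bp-del homozygotes, so it favoured genes whose libraries lie apart from XX WT. Of all genes, 18.1%, 21.9% and 15.1% were higher in the XX homozygotes than in XX WT with no overlap in CPM. Pcna was 214, 216 and 183 CPM in XX WT. It was 299.7, 352, 352, 306 and 295 CPM in XX 1bp-ins, 348, 309, 326, 273 and 325 in 3bp-del and 272, 292, 261, 308 and 288 in 3bp-12bp-del homozygotes. In XY WT it was 307, 341 and 227 CPM. All XX homozygotes lay above XX WT and within the span of the XY libraries (227 to 353 CPM). Cdc6, the origin licensing factor, was 31.9, 34 and 25.8 CPM in XX WT. It was 43, 46.3, 52.1, 39.7 and 43.2 CPM in XX 1bp-ins, 48.7, 46.1, 45.1, 42.9 and 43.2 in 3bp-del and 43, 46.8, 37.9, 46.9 and 45.2 in 3bp-12bp-del homozygotes. In XY WT it was 51.3, 52.4 and 40.6 CPM, and in XY mutants 47.2 to 57.6. The XX homozygotes lay above XX WT and overlapped the lower XY mutants in CPM. In TPM, 1 of the 15 XX homozygotes overlapped XX WT in Cdc6, and none in Pcna. The place of Cdc6 against XY WT depended on the scale. In TPM 4, 5 and 1 of 5 homozygotes lay below every XY WT library and 1, 0 and 0 above. In CPM 1, 0 and 1 lay below and 0, 0 and 0 above. The log2 fold of Cdc6 against XX WT was 0.57 ± 0.11, 0.56 ± 0.09 and 0.54 ± 0.10.

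Most other S-phase genes rose in each genotype too. Tyms, which makes thymidylate, rose by 0.68, 0.59 and 0.52, and E2f1, the transcription factor, by 0.69, 0.68 and 0.45. Tyms was 61.1, 61.8 and 55.8 CPM in XX WT and 91, 95.4, 98.8, 90.1 and 94.5 CPM in XX 1bp-ins, 97, 85.8, 94, 81.3 and 89.6 in 3bp-del and 79.6, 87.2, 77.7, 91.1 and 86.7 in 3bp-12bp-del homozygotes. It was 92, 99.8 and 67 CPM in XY WT. Every XX homozygote lay above every XX WT library, and XY WT replicate 3 lay below the homozygotes. Uhrf1, which maintains DNA methylation at the fork, was 134, 142 and 127 CPM in XX WT and 194, 174, 208, 172 and 162 CPM in XX 1bp-ins, 181, 207, 184, 189 and 192 in 3bp-del and 200.3, 213, 177, 205 and 210.3 in 3bp-12bp-del homozygotes. XY WT libraries had 203, 199 and 166 CPM. No XX homozygote overlapped XX WT in CPM, 1 of 15 did in TPM, and the homozygotes overlapped XY WT. In TPM 3, 4 and 1 of 5 homozygotes lay below every XY WT library and 1, 1 and 4 above. In CPM 1, 0 and 0 lay below and 1, 1 and 3 above. Uhrf1 rose by 0.46, 0.50 and 0.60. Rrm1 and Rrm2, the subunits of ribonucleotide reductase, rose by 0.42 (Rrm1, 3bp-del) to 0.52 (Rrm2, 1bp-ins). Mcm2, a helicase subunit, rose by 0.27, 0.21 and 0.25, and its calls were lost without XX WT replicate 3. The other calls named here for Pcna, Cdc6, Tyms, E2f1, Uhrf1, Rrm1 and Rrm2 were kept in every fit that leaves out 1 library. Exceptions were Mcm10 in 1bp-ins and 3bp-del, Ccne2 in 3bp-del and Mcm6 in 3bp-12bp-del homozygotes, which were not called (0.24, 0.20, -0.02 and 0.19).

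Of the mitotic genes, Cdk1 was 88.8, 88.5 and 78 CPM in XX WT. It was 115, 131, 130.2, 109 and 147 CPM in XX 1bp-ins, 129.7, 115, 131, 115 and 126 in 3bp-del and 106, 99, 93.9, 118 and 121 in 3bp-12bp-del homozygotes. In XY WT it was 151, 159 and 108 CPM, and in the other 19 XY libraries 137 to 183. The XX homozygotes lay above XX WT and, but for replicate 5 of 1bp-ins and replicate 3 of XY WT, below the XY libraries. Plk1 had a like order, with the XX homozygotes just reaching the lowest XY mutants. It was 83.2, 77.7 and 71.7 CPM in XX WT and 94.7, 119, 123, 106 and 121 CPM in XX 1bp-ins, 114, 109, 122, 102 and 106 in 3bp-del and 89, 104, 85.9, 106 and 118 in 3bp-12bp-del homozygotes. XY WT libraries had 138, 155 and 99.8 CPM, and in XY mutants 122 to 160.0. In TPM, 2 of 15 XX homozygotes overlapped XX WT in Cdk1 and 1 in Plk1. The folds of Cdk1 against XX WT were 0.59 ± 0.10, 0.53 ± 0.07 and 0.36 ± 0.09. The kinases Aurka and Aurkb, the survivin gene Birc5 and the cyclin Ccna2 also rose in each genotype, by 0.25 (Aurka, 3bp-del) to 0.46 (Birc5, 3bp-del). In 3bp-12bp-del homozygotes these calls were less stable: that of Cdk1 and that of Plk1 were lost without replicate 4 or XX WT replicate 2 or 3 (highest edgeR adjusted p = 0.0758 and 0.0820), and those of Aurka, Ccna2, Aurkb and Birc5 in 4, 5, 6 and 6 of 8 such fits. Aurka was also lost in 4 of 8 in 1bp-ins and in 2 of 8 in 3bp-del.

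Mki67, whose protein coats mitotic chromosomes, and the kinetochore genes Cenpe and Cenpf behaved differently. Mki67 was 269.9, 312 and 262 CPM in XX WT, 257, 251, 242, 231 and 233 in XX 3bp-del homozygotes and 402, 323, 304, 323 and 350.1 in 3bp-12bp-del homozygotes. It was 231, 227, 258, 166 and 292 CPM in XX 1bp-ins homozygotes, where it was not called, and 390.1, 358 and 427 in XY WT. It fell in 3bp-del (-0.22 ± 0.07, edgeR adjusted p = 0.0229) and rose in 3bp-12bp-del homozygotes (0.30 ± 0.10, edgeR adjusted p = 0.0478). The first call was lost without 3bp-del replicate 4 or 5 or XX WT replicate 2, and the second without any 1 of 5 of the 8 libraries. Cenpe was 89.3, 94.2 and 87 CPM in XX WT and 79.2, 65.5, 69.1, 65.8 and 69.5 in 3bp-del homozygotes, where it and Cenpf fell (-0.37 ± 0.07 and -0.33 ± 0.09). Cenpf was lost without XX WT replicate 2. These are the longest transcripts of the set, at the 99.0, 96.1 and 98.1 percentile of relative length. In XX homozygotes the fold against XX WT fell with length across all genes (Spearman's rho -0.388, -0.477 and -0.219 over 16040, 16031 and 15957 genes). With that trend removed, 15, 16 and 20 S-phase and 5, 6 and 5 mitotic genes rose, and no mitotic gene fell. Mki67 then rose in 3bp-del homozygotes (0.42 ± 0.10, edgeR adjusted p = 0.00785), and Cenpe and Cenpf were not called (0.098 and 0.23). The falls of these 3 genes were thus lost with the length trend, and the calls of most S-phase genes were not.

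**Figure D3:**
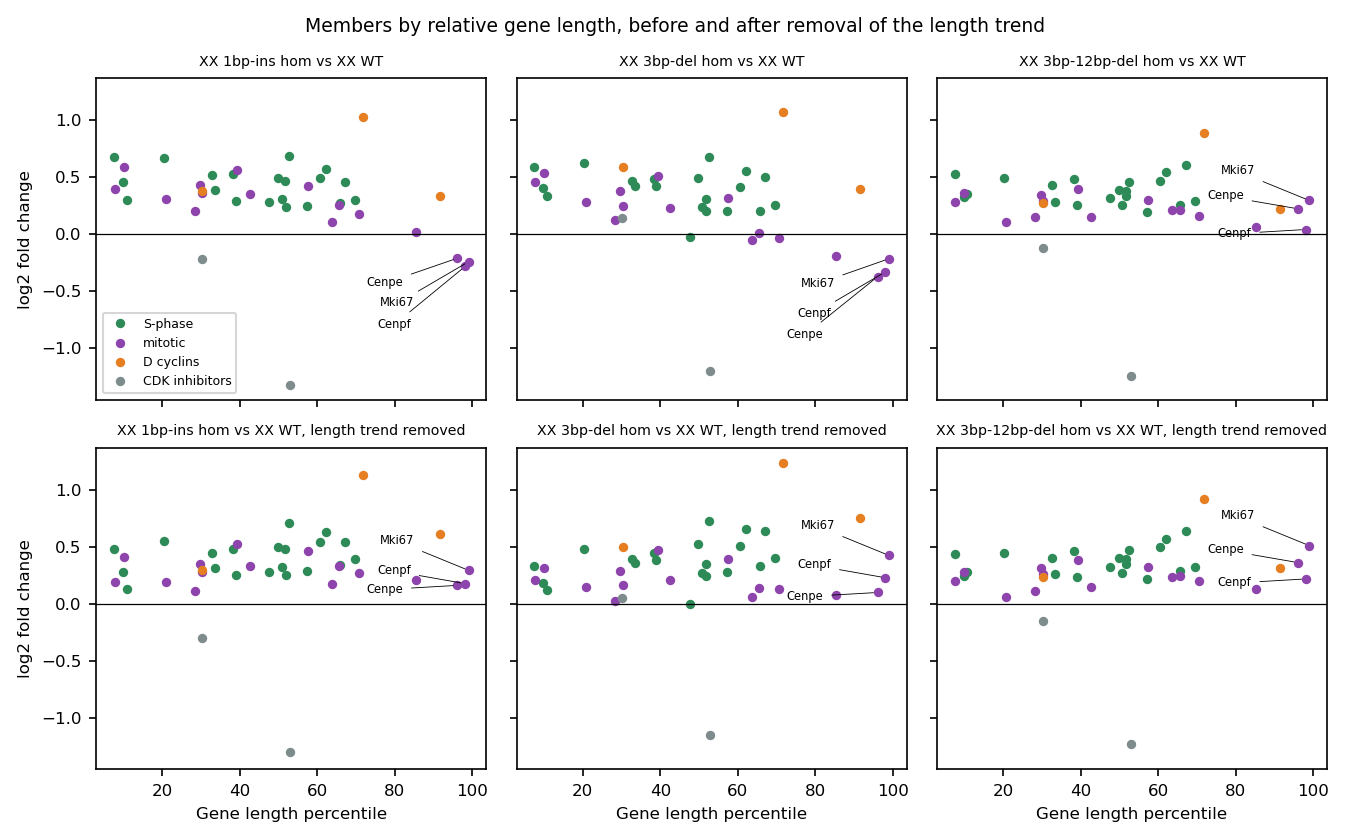
Log2 fold change of the members in XX homozygotes against XX WT by percentile of relative gene length, as fitted (top) and with the length trend removed (bottom). The longest members, Mki67, Cenpe and Cenpf, lie below 0 in the top 1bp-ins and 3bp-del panels and above 0 in every bottom panel.

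**Figure D4:**
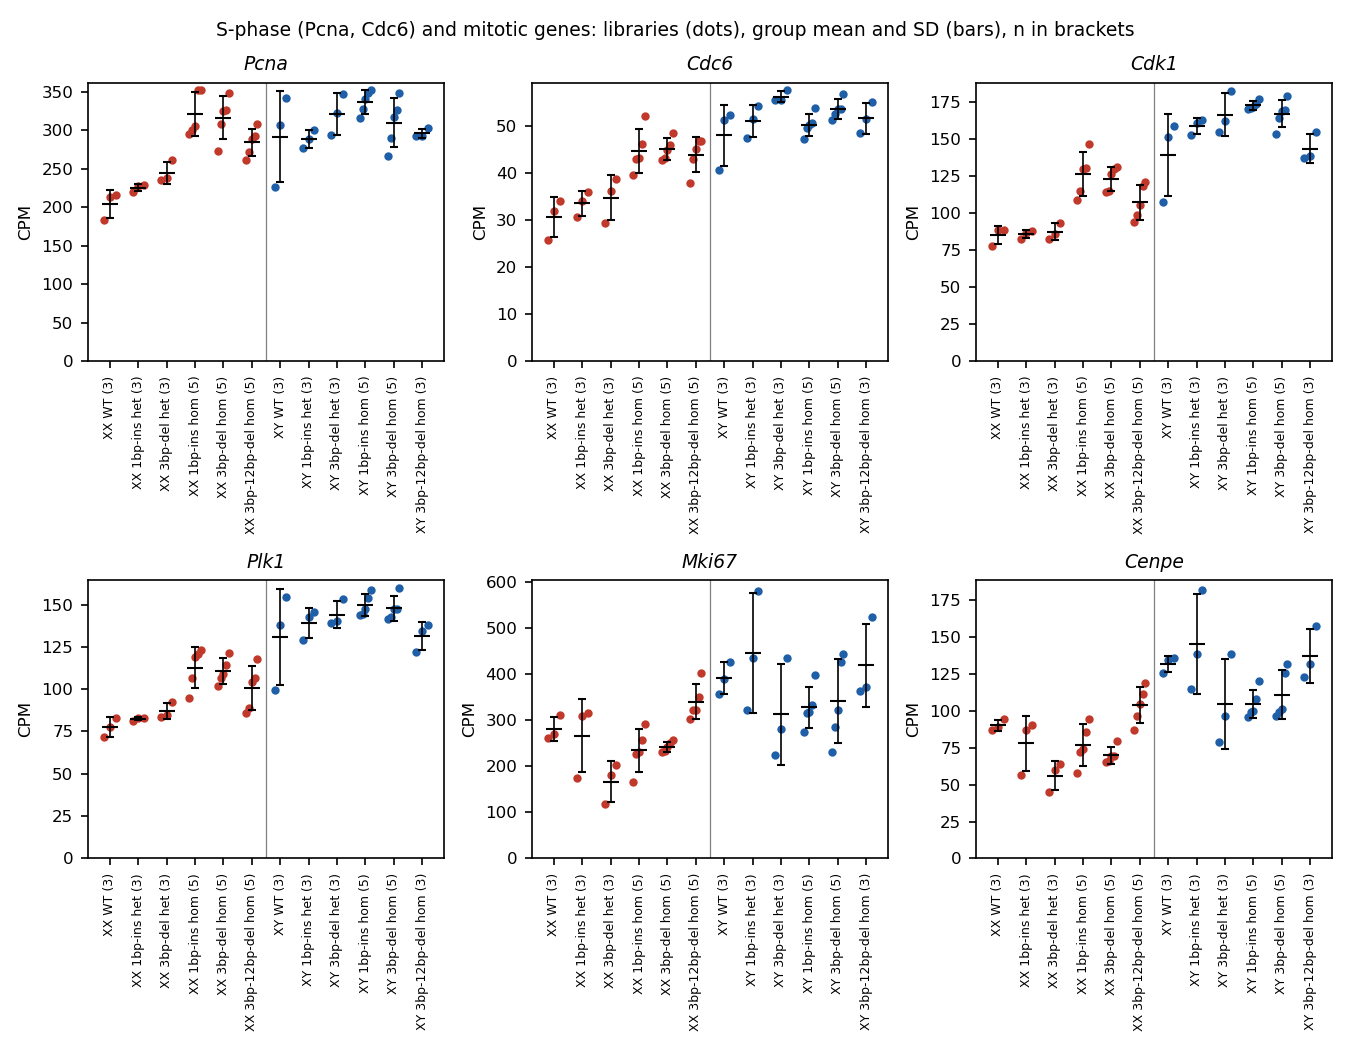
CPM of 2 S-phase genes (Pcna, Cdc6) and 4 mitotic genes in every library (dots), with the group mean and SD (bars), for 6 XX groups (red) and 6 XY groups (blue). XX homozygotes reach the XY levels of Pcna, and their Cdk1 and Plk1 mostly lie between XX WT and the XY mutants.

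To place the XX homozygotes against XY gonads, they were compared with XY homozygotes of the same mutation, a comparison chosen after earlier values were seen. For 1bp-ins 2 members were higher and 10 lower in XX (6.4% and 3.54% of all genes), for 3bp-del 6 and 23 (15.1% and 16.7%), and for 3bp-12bp-del 2 and 8 (5.14% and 5.28%). Of the 16 mitotic genes 10, 16 and 7 were lower and all 16 had a fold below 0 in each genotype, with medians of -0.29, -0.40 and -0.34. Of the 20 S-phase genes 0, 7 and 1 were lower, with medians of -0.04, -0.09 and -0.07. These 3 comparisons share no libraries, and Cdk1, Plk1, Aurka, Bub1b and Cdc20 were lower in all 3. Cdkn1a and Cdkn1b were higher in all 3, Cdkn1a by 1.19 ± 0.28, 1.39 ± 0.12 and 1.18 ± 0.14. With the length trend removed 11, 15 and 10 mitotic genes were lower. Without replicate 5 of XX 1bp-ins, 5 members were higher and 13 lower in that genotype, and without 1 of 6 other libraries 6 or 7 were called in all. For 3bp-12bp-del, 1 member was called without XY replicate 1 or 3, 3 without XX replicate 2 and 6 without XX replicate 4. Of 11 germ cell markers 0, 4 and 0 and of 8 mesonephros markers 4, 4 and 2 were higher in XX, of 9 stroma and Leydig markers 2, 3 and 1 were lower, and their part was not tested.

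Against XY WT, 0 members passed in 1bp-ins homozygotes by edgeR (0.0503% of all genes were called higher and 0.0754% lower), with 9 at an unadjusted p under 0.05 and 5 called by DESeq2. In 3bp-del homozygotes 6 were higher and 7 lower (8.6% and 8.99%), and in 3bp-12bp-del 2 were higher and 0 lower (3.39% and 2.21%). The 7 lower genes were all mitotic, among them Cenpe (-0.91 ± 0.08) and Bub1b, a checkpoint kinase (-0.46 ± 0.10). In this 3bp-del comparison the fold fell with length across all genes (Spearman's rho -0.446), and Cenpe is among the longest members. With the length trend removed, 4 members were higher and 7 lower in 3bp-del homozygotes. Without XY WT replicate 3 the counts were 0, 6 higher and 17 lower, and 2 higher and 11 lower, and without replicate 5 of 1bp-ins 2 higher and 4 lower in that genotype. Without XY WT replicate 1 the 3bp-del counts were 2 higher and 5 lower. The 2 calls of 3bp-12bp-del were both lost without its replicate 1 or 2 or XY WT replicate 1 or 2, and 1 was left without its replicate 4 or 5.

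The mean log2 CPM of the S-phase genes minus that of the mitotic genes sums up this contrast without a test. The S-phase mean was 6.4 ± 0.12 (SD, n = 3) in XX WT, 6.82 ± 0.09, 6.8 ± 0.05 and 6.77 ± 0.08 in the 3 XX homozygote groups (n = 5 each) and 6.75 ± 0.19 in XY WT (n = 3). The mitotic mean was 6.79 ± 0.13 in XX WT, 6.99 ± 0.15, 6.92 ± 0.07 and 7.0 ± 0.11 in the homozygotes and 7.27 ± 0.20 in XY WT. In S-phase mean the homozygotes overlapped the XY libraries, and in mitotic mean they reached 7.16 at most, with 21 of 22 XY libraries above that value. The difference of the means was -0.39 ± 0.02 in XX WT, -0.17 ± 0.15, -0.12 ± 0.04 and -0.23 ± 0.06 in the homozygotes, and -0.52 ± 0.01 in XY WT. It was also raised in XX heterozygotes, at -0.24 ± 0.09 for 1bp-ins and -0.13 ± 0.05 for 3bp-del (n = 3 each). Homozygotes exceeded heterozygotes of the same mutation by 0.07 for 1bp-ins and 0.01 for 3bp-del. Replicate 5 of the 1bp-ins homozygotes, the library with the high Sertoli marker sum, had a difference of -0.42. Without it the group was at -0.11 ± 0.05 (SD, n = 4) and exceeded the heterozygotes by 0.14.

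**Figure D5:**
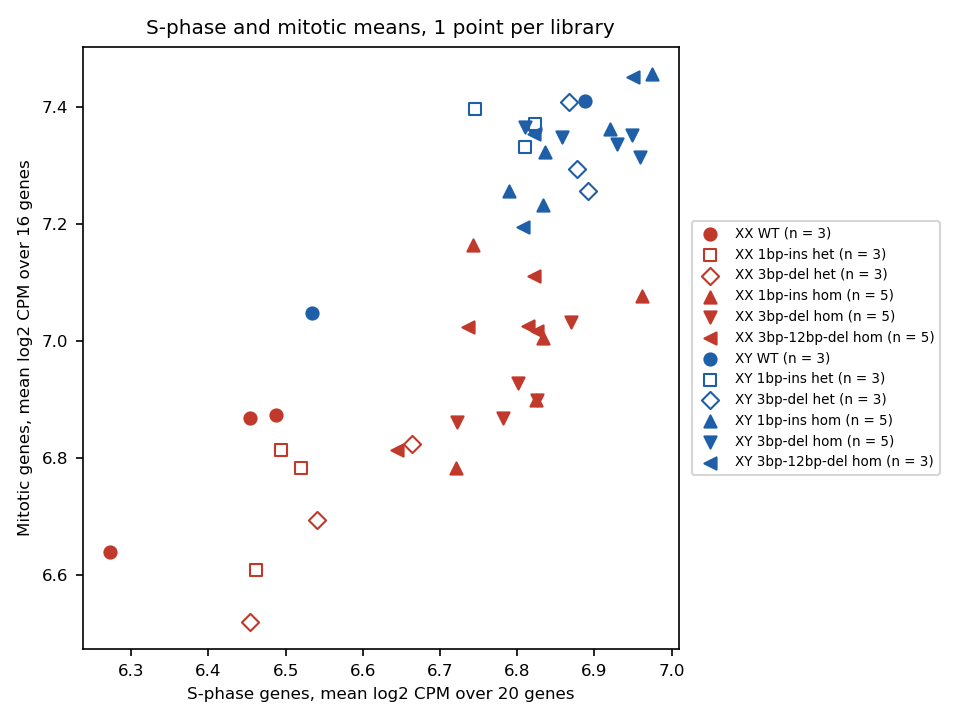
Mean log2 CPM of the 20 S-phase genes against that of the 16 mitotic genes, 1 point per library, by sex (colour) and genotype (shape). XX homozygotes overlap the XY libraries on the S-phase axis and lie below all but 1 of them on the mitotic axis.

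Homozygotes were also compared with heterozygotes of the same mutation, with no shared libraries between the 2 comparisons. For 1bp-ins 26 members were higher and 1 lower in XX homozygotes (8.49% and 8.76% of all genes), and for 3bp-del 25 were higher and 1 lower (14% and 13.1%). Of these, 19 were higher in both, among them Pcna, Tyms, Cdk1, Plk1 and all 3 D-type cyclins, and Cdkn1b was the lower gene in both. The medians of the S-phase and mitotic genes were 0.37 and 0.33 for 1bp-ins and 0.28 and 0.26 for 3bp-del, and the difference between the lists was not tested. Without 1 heterozygote the count of higher members for 1bp-ins was 15, 9 and 8 (replicates 1, 2 and 3) and without homozygote replicate 2 it was 16, and for 3bp-del it was 15 without heterozygote replicate 3. Without replicate 5 of the 1bp-ins homozygotes 28 were higher and 1 lower. Against XX WT, 0 members passed in XX 1bp-ins heterozygotes by edgeR (0% of all genes; 3 at an unadjusted p under 0.05; 0 by DESeq2). In 3bp-del heterozygotes Mcm6 and Tyms were higher and Cenpe and Cenpf lower (4.78% and 6.15% of all genes), and both falls were lost with the length trend removed (-0.44 and -0.33; edgeR adjusted p = 0.115 and 0.270), as was the call of Tyms. In fits that leave out 1 library, 1 lower member was called without XX WT replicate 1 or heterozygote replicate 3, 2 without heterozygote replicate 2 and 0 without XX WT replicate 2.

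In XY gonads no member was called in any of the 5 mutant groups against XY WT by edgeR (0.013% of all genes for 3bp-12bp-del and 0% for the others, counted in either direction). At an unadjusted p under 0.05 there were 7, 4 and 3 members in the homozygote groups and 1 in each heterozygote group. DESeq2 called 1 member in 1bp-ins homozygotes and 0 in the other 4 groups. Leaving out XY WT replicate 3 gave 0 in all 5.

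Whether the mutation acted differently in the sexes was tested as an interaction (XX effect minus XY effect). For 1bp-ins 1 member was higher and 1 lower (0.834% and 0.207% of all genes), for 3bp-del 3 and 1 (2.07% and 1.75%), and for 3bp-12bp-del 1 and 1 (0.492% and 0.105%). Ccnd1 was higher in each, at 1.11 ± 0.20, 1.15 ± 0.17 and 1.14 ± 0.23 (edgeR adjusted p = 0.0137, 0.00197 and 0.0421). Cdkn1b was lower in each, at -1.41 ± 0.19, -1.15 ± 0.14 and -1.26 ± 0.23 (edgeR adjusted p = 0.00293, 0.000755 and 0.0297). No S-phase or mitotic gene was called. Without XY WT replicate 3, 17, 20 and 19 members were higher and 1 lower in each. The shares of all genes called in these fits are not given here. Without XX WT replicate 1 the counts were 1 and 1, 2 and 1, and 1 and 1, and without replicate 5 of XX 1bp-ins they were 2 and 1 for that mutation. For 1bp-ins, Ccnd1 was lost without XX WT replicate 2 or 3 and Cdkn1b was kept in every fit that leaves out 1 library. For 3bp-del, both were kept in every such fit, and for 3bp-12bp-del Ccnd1 was lost in 11 and Cdkn1b in 9 of 14. In 3bp-del, Ccnd2 (0.83 ± 0.17, edgeR adjusted p = 0.0131) and Ccnd3 (0.43 ± 0.11, edgeR adjusted p = 0.0425) were also higher, and Ccnd3 was lost in 12 of 16 fits.

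Other genes of the same pathways, from lists that were also chosen with earlier results known, are given as counts. Of 38 other replication genes 25, 23 and 24 rose in XX homozygotes and 2, 2 and 1 fell. Fen1, which trims Okazaki fragments, rose by 0.65 ± 0.09, 0.64 ± 0.08 and 0.54 ± 0.09, and Tk1, thymidine kinase, by 0.68 ± 0.07, 0.70 ± 0.09 and 0.49 ± 0.09. Of 34 other mitotic genes 15, 14 and 14 rose and 0, 3 and 0 fell. In the WT sex comparison 1 of the 38 and 11 of the 34 were higher in XY, among the latter Spc25, a kinetochore subunit (0.80 ± 0.14), and 1 and 0 were lower. Of 24 genes of RB, E2F and CDK control 7, 10 and 7 rose in the homozygotes and 1, 2 and 0 fell, beside the shares of all genes given above for these comparisons. Tfdp2, a partner of E2F factors, fell in 1bp-ins and in 3bp-del homozygotes (-0.27 ± 0.08 and -0.26 ± 0.06), and Cdc25a, which activates CDKs, rose by 0.39 ± 0.07, 0.35 ± 0.05 and 0.37 ± 0.06. Cdkn1c, another inhibitor of the same family, was -1.58 ± 0.13 between the WT sexes and was not called in XX 1bp-ins or 3bp-del homozygotes (-0.19 ± 0.34 and 0.19 ± 0.10). It fell in XX 3bp-12bp-del homozygotes (-0.38 ± 0.12, edgeR adjusted p = 0.0394).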

How the data were processed

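Whole gonads of E12.5 mouse embryos gave 46 poly(A) RNA-seq libraries from 140 ng of total RNA each, per the labels' protocols. The deposited tables hold estimated counts per gene (8.0% to 8.9% of values not whole) and TPM values, which sum to 923510 to 945851 per library in the deposited table. The build mm10 is named in the submitters' processing notes, while no source used here gives the aligner, the quantifier or the strand setting. The 1 column that matched no sample label was not used.

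Estimated counts were rounded and tested with edgeR 4.0.16 (TMM, filterByExpr, robust quasi-likelihood F test, R 4.3.3), with the libraries of each comparison's own groups and p-values adjusted over all genes tested. CPM were computed on TMM-scaled library sizes, and log2 CPM with a prior count of 2. Relative gene length was count divided by TPM, and the length trend was removed by lowess offsets (span 0.3) per library. No 2 replicates agreed within sampling noise (71 pairs, lowest chi-square per degree of freedom 13.28). Alternatives were RLE scaling, no filter, DESeq2 1.42.0, 1 fit over all 12 groups, a replicate block, the length trend removed, log2(TPM + 1), the median over each list and leaving out each library. Scripts were tested on simulated data. For XY WT against XX WT, edgeR recovered 0 of 67 genes changed 1.25-fold, 4 of 66 changed 1.5-fold and 33 of 64 changed 2-fold. Values in every library were given for the D-type cyclins, both inhibitors, Pcna, Mki67 and, in the S-phase and mitotic lists, the 2 members with the smallest adjusted p in XY WT and in XX 3bp-12bp-del homozygotes, each against XX WT. From other lists, genes with the smallest adjusted p were named. The members and lists were chosen with earlier results of these data known. In no comparison did the deviations of same-numbered libraries correlate over 0.1 in every pair. Single pairs ranged from -0.357 (replicate 1 of XX 3bp-del heterozygotes and XX WT) to 0.535 (replicate 4 of XX and XY 1bp-ins homozygotes). Figures used matplotlib 3.10.9.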

Additional observations from a re-analysis of the deposited data

Results flagged for a closer look

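Of 80 groups of values examined for a library far from the others (13 members and 3 scores), 2 had one, and chance gives about 1 in 20. All 80 came from groups of 5 libraries. Groups of 3 libraries, XX WT and XY WT included, were not examined. Ccnd1 in replicate 5 of the XX 1bp-ins homozygotes was 148.9 CPM, against 222 to 237 in the other 4 libraries. The same library had the high Sertoli marker sum. Cenpe in replicate 1 of the XX 3bp-del homozygotes was 79.2 CPM, against 65.5 to 69.5 in the others.

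A difference between the sexes in the effect of the homozygous mutation (XX minus XY, edgeR interaction test) was called in 8 cases. The tests share the XX WT and XY WT libraries. Ccnd1 differed by 1.11 for 1bp-ins, 1.15 for 3bp-del and 1.14 for 3bp-12bp-del on the log2 scale. Cdkn1b differed by -1.41, -1.15 and -1.26. Ccnd2 and Ccnd3 differed by 0.83 and 0.43 for 3bp-del. Both calls of 3bp-12bp-del, and that of Ccnd3, were lost in most fits that leave out 1 library. With a replicate block 0 members were called for 3bp-12bp-del.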

How the results depend on the processing

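Counts of members called varied with the tool and the libraries. The shares of all genes called under these alternatives are not given here, so the changes cannot be read as particular to the members. For XY WT against XX WT the count of 9 became 25 with DESeq2, 35 with 1 fit over all 12 groups and 17 with the length trend removed. For XX 3bp-del heterozygotes against XX WT the count of 4 became 7, 2 and 1. Against XY WT, XX 1bp-ins homozygotes had 5 calls with DESeq2 and 9 with 12 groups in place of 0, and 3bp-12bp-del had 4 and 10, and 1 with no filter, in place of 2. In XY 1bp-ins homozygotes 0 became 1 with DESeq2 and 3 with 12 groups, and in 3bp-del and 3bp-12bp-del 0 became 2 and 1 with 12 groups. The interaction counts of 2, 4 and 2 became 8, 13 and 6 with 12 groups, 4 and 9 (1bp-ins and 3bp-del) with DESeq2, and 4 and 7 with length removed. For XX against XY 3bp-12bp-del homozygotes 10 became 16 with DESeq2. The cause was not tested. RLE scaling kept every count within 1.5 times.

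A replicate block, for which the labels gave no ground, lowered some counts. With it, 12 members were called in XX 3bp-12bp-del homozygotes and 1 in XX 3bp-del heterozygotes, each against XX WT. There were 3 and 1 in XX 3bp-del and 3bp-12bp-del homozygotes against XY WT, and 0 in the 3bp-12bp-del interaction. The other counts stayed within 1.5 times with the block.

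The S-phase minus mitotic difference kept its direction under the alternatives of summary, unit and length, except that XX 3bp-del homozygotes less heterozygotes went from 0.01 to -0.02 with length removed. With length removed it was -0.18 for XY WT and 0.17 for XX 3bp-del homozygotes, 0.20 for XX 3bp-del heterozygotes (each less XX WT), 0.019 for XY 1bp-ins and 0.35 for XX 3bp-del homozygotes (each less XY WT). With log2(TPM + 1) the 3bp-del homozygotes gave 0.22 less XX WT and 0.37 less XY WT. With medians XX 3bp-del heterozygotes gave 0.21 and XY 1bp-ins homozygotes 0.12. With length removed, Mki67 and Cenpe in XX 3bp-del homozygotes against XX WT reversed to 0.42 and 0.098.

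Leaving out 1 library gave 2 to 35 calls for the WT sexes, 27 to 33 and 23 to 30 for the heterozygote sexes, and 20 to 31, 29 to 33 and 14 to 31 for XX homozygotes (1bp-ins, 3bp-del, 3bp-12bp-del) against XX WT. It gave 0 to 3 for 3bp-del heterozygotes, 0 to 6, 7 to 23 and 0 to 13 against XY WT, and 9 to 29 and 16 to 29 for homozygotes against heterozygotes. It gave 1 to 18, 3 to 21 and 0 to 20 for the interactions and 6 to 18, 24 to 29 and 1 to 10 for XX against XY homozygotes. The score difference of XX 3bp-del homozygotes against heterozygotes lay between -0.01 and 0.04. Depth limited no member, since every count was at least 342.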
